A study of Arabidopsis thaliana with 6 samples.

Results

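The CSLC genes (cellulose synthase-like C) of Arabidopsis thaliana encode the glycosyltransferases that make the glucan backbone of xyloglucan. The members described here are the 5 CSLC loci CSLC04 (AT3G28180), CSLC05 (AT4G31590), CSLC06 (AT3G07330), CSLC08 (AT2G24630) and CSLC12 (AT4G07960), found through the probe sets that the platform annotation assigns to 1 gene. All 5 were found, each with 1 probe set, among 22810 probe sets on the array. The members were chosen by locus name, and no signal entered the choice among them. The family itself was selected with its log2 changes between the groups of these arrays in view, so these changes are a description and not independent support for a response of the family. CSLC04 was the member that changed past the threshold, with a mean signal 35.1% lower when brassinazole, an inhibitor of brassinosteroid synthesis, was added. The other 4 did not pass; 3 of these had lower means and CSLC06 a higher one.

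Xyloglucan is the main hemicellulose of the primary walls of Arabidopsis and binds to cellulose. The CSLC proteins sit in Golgi membranes and build its chain of linked glucose, to which xylosyltransferases (XXT) add xylose, further enzymes add galactose, fucose and acetyl groups, and the finished polymer is secreted to the wall. There xyloglucan endotransglucosylase/hydrolases (XTH) cut and rejoin it, and glycosidases trim it. Arabidopsis plants that lack the whole CSLC family have no detectable xyloglucan, and CSLC4 makes a glucan chain when expressed in yeast together with a xylosyltransferase.

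The study measured total RNA of whole Columbia seedlings on 6 Affymetrix arrays, 3 in each of 2 groups. Seedlings of both groups grew for 10 d on agar with 16 h light and 8 h darkness a day and then spent 8 h in liquid medium with 1e-07 M 2,4-D, a synthetic auxin. For 3 samples that medium held 2,4-D alone, and for the other 3 it also held 1e-06 M brassinazole, an inhibitor of brassinosteroid synthesis. No transgene or mutant was used, and every sample carried 2,4-D, so the comparison asks what brassinazole changes in auxin-treated seedlings and shows no response to auxin itself. Per the labels, 3 seedlings gave the RNA of each batch before pooling. The titles call the samples biological replicates, but whether each had its own pool is not clear, so the p-values may measure technical spread only.

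The deposited values are linear MAS5 signals, and the mean of the middle 96% of probe sets was 500.0 on every array, which shows that the arrays were already scaled to each other. The array auxin 1 stood apart in its 25S rRNA control (981, against 174 to 215 on the other 5 arrays), and brassinazole 3 in the spiked bioB control (338, against 156 to 204 on the other 5). The 5S rRNA control read 134 to 174 in the samples with 2,4-D alone and 230.03 to 284 in those with brassinazole, and the ratio of the 3' to the 5' actin control, a measure of RNA integrity, at 12.3 to 17.3 and 18.8 to 21.1. The same ratio of the ubiquitin controls went the other way, at 3.14 to 3.54 with 2,4-D alone against 2.59 to 3.00 with brassinazole. The part of these controls in the results below was not tested. Of the markers fixed for tissues, 1 of 8 shoot, 2 of 7 root and 0 of 2 seed genes were named by a probe set. RCA, which encodes Rubisco activase of green tissue, was at 25002 ± 666 and 26083 ± 3053 (SD, n = 3 each), and PYK10, an abundant root beta-glucosidase, at 15032 ± 2088 and 15908 ± 1430, so transcripts of both shoot and root were present. With limma, neither differed past the threshold (adjusted p = 0.78 and 0.684). EXPA7, a root hair expansin, read 205 ± 27.2 and 154 ± 7.65 (log2 change -0.37, adjusted p = 0.0916). Its groups did not overlap, as in 27.2% of all probe sets tested, while those of RCA and PYK10 did.

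CSLC04, the member best studied as a xyloglucan glucan synthase, had signals of 749, 717 and 724 in the 3 samples with 2,4-D alone. With brassinazole the signals were 452, 461 and 509.6. Every brassinazole sample thus lay below every sample with 2,4-D alone, with a gap of 207 signal units between the groups. The mean fell from 730.2 ± 17.0 to 474 ± 30.9 (SD, n = 3 each), which is 35.1% lower. On the log2(signal + 16) scale used for testing, the change was -0.61 ± 0.0882 (SE), with a 95% interval of -0.80 to -0.42 and a limma adjusted p of 0.000681 over all probe sets tested. That p ranked 195th among 17059 probe sets, and 1.70% of them had a more negative change. In RNA of whole seedlings, fewer cells that express a gene and less of its RNA per cell cannot be told apart, which holds for each member below.

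CSLC05 is a further glucan synthase of the family. Its signals were 507, 548 and 462 with 2,4-D alone and 426, 408 and 341 with brassinazole. The groups did not overlap, but the gap between them, 35.9 signal units, was smaller than the SD within either group. The means were 506 ± 43.3 and 392 ± 44.6, and the log2 change of -0.36 ± 0.107 (SE) missed the threshold narrowly with a limma adjusted p of 0.0588. Its 95% interval, which is not adjusted for the number of probe sets, ran from -0.59 to -0.13. The lowest CSLC05 signal came from the brassinazole 3 array, on which CSLC04 had its highest signal of that group.

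CSLC12 had the signals nearest to the limit for dim probe sets, which was a signal of 34.2. They were 77.3, 92.3 and 89.6 with 2,4-D alone and 55.4, 70.6 and 66.6 with brassinazole. These groups did not overlap either, though the gap was 6.67 signal units and the SDs within the groups were 7.98 and 7.90. The log2 change was -0.35 ± 0.163 (SE), with a 95% interval of -0.70 to -0.003 and a limma adjusted p of 0.224.

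CSLC08 had signals of 229, 243 and 192.4 with 2,4-D alone. With brassinazole they were 159, 172 and 192.5. The highest brassinazole sample and the lowest sample with 2,4-D alone were therefore almost level, and the groups overlapped. The log2 change was -0.31 ± 0.124 (SE), with a 95% interval of -0.58 to -0.05 and a limma adjusted p of 0.15.

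CSLC06 was the member whose mean was higher with brassinazole. Its signals were 397, 354 and 299 with 2,4-D alone and 424, 387 and 370 with brassinazole. The groups overlapped, since auxin 1 read above both brassinazole 2 and brassinazole 3. The log2 change was 0.17 ± 0.113 (SE), with a 95% interval of -0.07 to 0.41 and a limma adjusted p of 0.419. The interval excludes a fall of the size seen for CSLC04 but leaves room for a small fall or for a rise of up to 0.41.

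**Figure D1:**
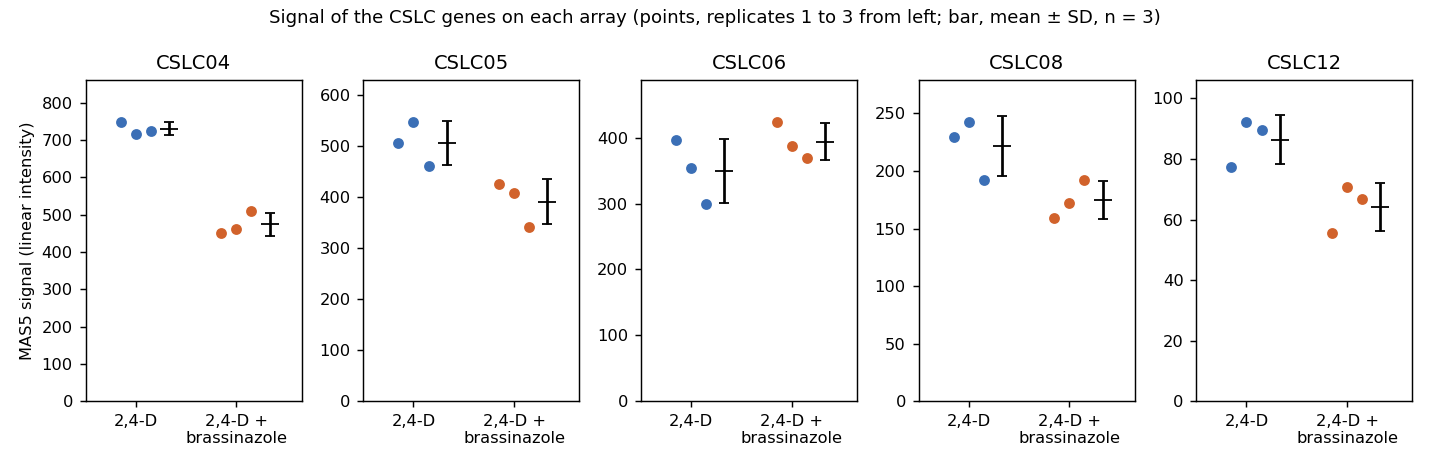
MAS5 signal (linear, from 0) of the 5 CSLC genes in the 3 samples with 2,4-D alone (blue) and the 3 with 2,4-D plus brassinazole (orange), with mean ± SD; each panel has its own scale because signals of different probe sets are not comparable. CSLC04 lies at 717 to 749 against 452 to 509.6, CSLC05 and CSLC12 are separated by smaller gaps, and CSLC08 and CSLC06 overlap.

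Over the family, 1 of 5 members passed the threshold, CSLC04, and 0 passed in the upward direction, where limma called 7.52% of all probe sets tested, 4.08% lower and 3.44% higher. At an unadjusted limma p under 0.05, 4 of 5 members differed, all but CSLC06. CSLC12 had the largest p of these and ranked 3676th of 17059 probe sets tested, so at least that many met this cut-off. All 3 brassinazole values lay below all 3 values with 2,4-D alone for 3 of 5 members, against 14.3% of all probe sets tested, and above them for 0 of 5, against 12.9% (27.2% in either direction). The log2 change was negative in 4 of 5 members against 52.7% of probe sets, and its median was -0.35 against -0.01 over all probe sets. The family was proposed with these values known, so nothing is read from these shares. All 5 members passed the filter on dim probe sets, which used the mean over all 6 arrays and not either group, so none was kept or lost through its change.

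**Figure D2:**
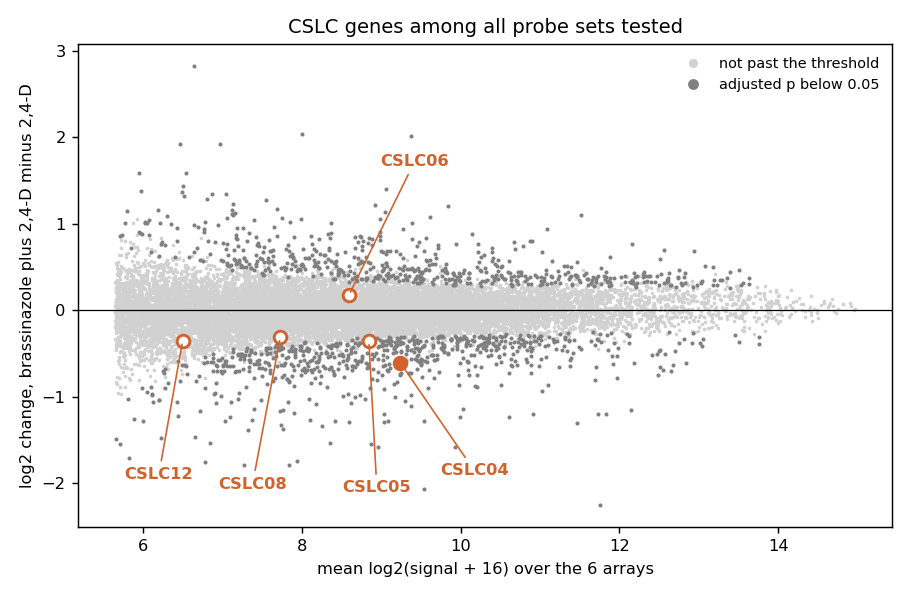
Log2 change (brassinazole plus 2,4-D minus 2,4-D alone) against mean log2(signal + 16) for the 17059 probe sets tested, light grey where not past the threshold and dark grey where the adjusted p was below 0.05; the filled orange point is CSLC04 and the open orange points are the other CSLC genes. CSLC04, at -0.61, lies among the dark points, while CSLC05 at -0.36, CSLC12 at -0.35, CSLC08 at -0.31 and CSLC06 at 0.17 lie among or at the edge of the light ones.

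The CSLC04 call did not rest on a single array. With each array left out in turn, its log2 change ranged from -0.66 to -0.58 and its limma adjusted p from 0.000621 to 0.00612. Left out in the same way, CSLC05 ranged from -0.42 to -0.27 (adjusted p of 0.059 to 0.195), CSLC08 from -0.40 to -0.25, CSLC12 from -0.42 to -0.27 and CSLC06 from 0.07 to 0.26. No member changed sign and none of these 4 passed in any of the 6 fits. Without both auxin 1 and brassinazole 3, an alternative chosen after seeing the data because of the 25S rRNA and bioB controls given above, CSLC04 was at -0.64 with an adjusted p of 0.00455, and it was again the 1 member that passed.

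**Figure D3:**
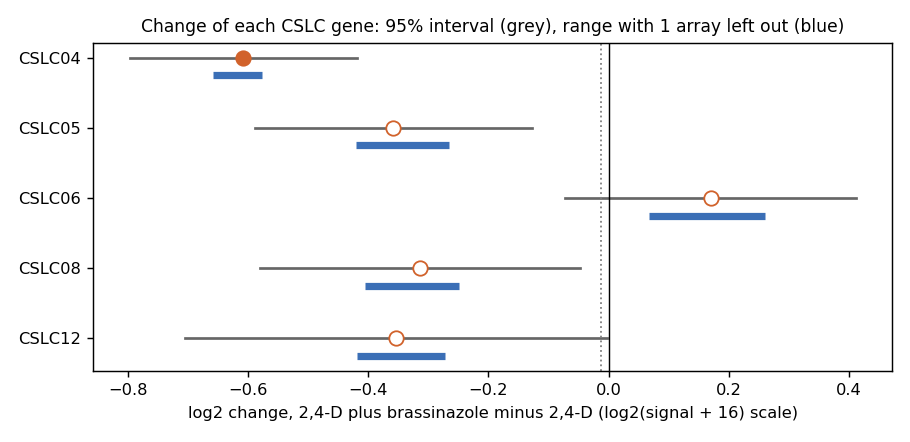
Log2 change of each CSLC gene (circle, filled where the limma adjusted p was below 0.05) with its 95% interval (grey line), the range over the 6 fits with 1 array left out (blue bar) and the median of all probe sets tested (dotted line). The intervals of CSLC04 (-0.80 to -0.42), CSLC05 (-0.59 to -0.13) and CSLC08 (-0.58 to -0.05) lie wholly to the left of the dotted line. They are not adjusted for the number of probe sets. CSLC06 is the 1 gene with its circle to the right of 0.

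The members were also set against each other within each array, since a ratio of 2 probe sets on an array is largely free of the scaling between arrays. The height of such a ratio depends on the probes and is not used. Its shift between the groups equals the difference between the log2 changes of the 2 members given above. The shifts therefore restate those changes and are no further support, and only their spread over the arrays is added. On the log2 scale, the ratio of CSLC06 to CSLC04 was -0.89, -0.99 and -1.23 with 2,4-D alone. With brassinazole it was -0.09, -0.24 and -0.45. The groups lay apart, and the ratio was higher with brassinazole by 0.78 ± 0.145 (SE). The shift of CSLC06 over CSLC05 was 0.53 ± 0.102 (SE), and the groups did not overlap there either. CSLC08 and CSLC12 relative to CSLC06 shifted by -0.48 ± 0.145 and -0.52 ± 0.214 (SE), again with no overlap.

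Among the 4 members with lower means, CSLC08 over CSLC04 shifted by 0.29 ± 0.0985 (SE) and CSLC12 over CSLC04 by 0.25 ± 0.116, with no overlap in either. CSLC05 over CSLC04 shifted by 0.25 ± 0.164 with overlapping groups. The ratios of CSLC08 over CSLC05, CSLC12 over CSLC05 and CSLC12 over CSLC08 shifted by 0.045, 0.0047 and -0.04, and their groups overlapped. In all, 10 pairs were compared and 6 did not overlap. All 6 hold CSLC04 or CSLC06, so they are not separate observations, and single probe sets did not overlap in 27.2% of cases. For each of those 6 the two-sided exact permutation p was 0.1, the smallest that 3 against 3 arrays allow, and 0.167 adjusted over the 10 pairs, so none could pass.

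**Figure D4:**
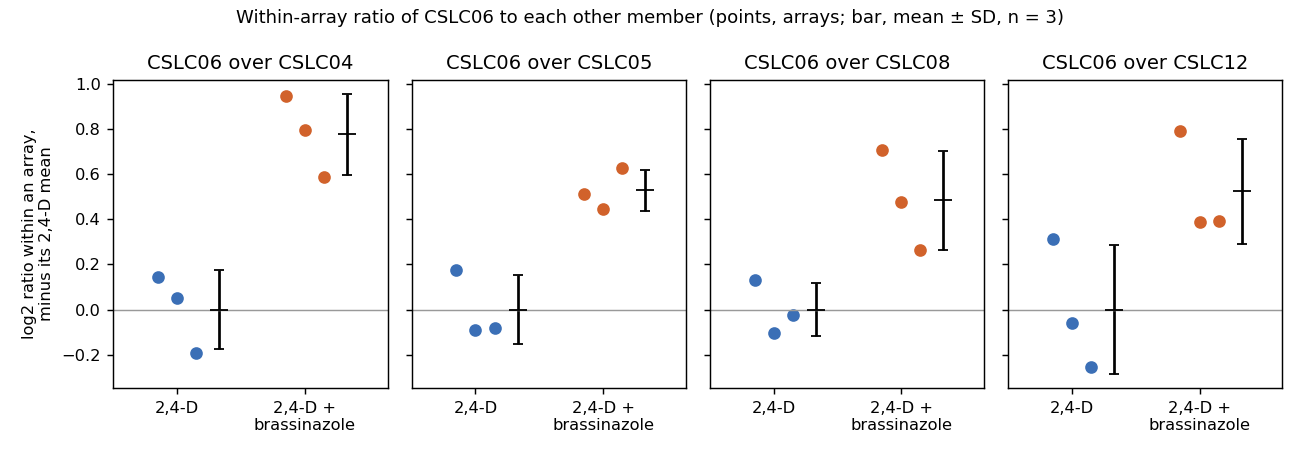
Within-array log2 ratio of CSLC06 to each other CSLC gene, shown relative to its mean with 2,4-D alone, for the 3 samples with 2,4-D alone (blue) and the 3 with brassinazole (orange), with mean ± SD. The brassinazole points lie above those with 2,4-D alone in all 4 panels, and the shift is 0.78 for CSLC04 and 0.53 for CSLC05.

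Of the rest of the xyloglucan pathway, 16 of 74 listed loci were named by a probe set and 14 were tested. Of these 14, 4 fell, 2 rose and 8 did not pass, where 4.08% of all probe sets tested fell and 3.44% rose, with a median log2 change of -0.10 against -0.01 over all probe sets. The 4 that fell and 1 of the 2 that rose were XTH genes. None of the 5 XXT loci was named by a probe set, so the step that follows the CSLC proteins was not analysed here. The annotation used gave no gene for 8794 of 22810 probe sets, so a locus not named may still be on the array.

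For the steps before and after the backbone, GER2, a homologue of the GDP-fucose synthesis enzyme GER1, had signals of 507, 418 and 546 with 2,4-D alone and 678, 696 and 689 with brassinazole. The groups did not overlap, and GER2 rose by a log2 change of 0.48 ± 0.103 (SE), with a limma adjusted p of 0.00989. The list of nucleotide sugar supply held 25 loci, of which 4 were named by a probe set and tested. The other 3 did not pass, though the groups of UXT2 did not overlap either, with lower values under brassinazole. AXY9, needed for the acetylation of xyloglucan, was at 331 ± 24.0 and 293 ± 11.6 (adjusted p = 0.378), without overlap of the groups. BGLC1, a beta-glucosidase that acts on xyloglucan fragments in the wall, was at 1966 ± 84.3 and 2346 ± 142 (adjusted p = 0.0729), also without overlap. Over all probe sets tested, the groups did not overlap in 27.2%.

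Of 33 listed XTH loci, 10 were named by a probe set and 8 were tested, so most of the family was not seen here. Of these 8, 4 fell, 1 rose and 3 did not pass, against the same shares of 4.08% and 3.44% over all probe sets. The list was chosen with earlier results of these data known. XTH19 had signals of 750.4, 751 and 844 with 2,4-D alone and 364, 320.5 and 309 with brassinazole. It was the member of the list with the smallest p (log2 change -1.20 ± 0.0972, SE, adjusted p = 6.28e-06). XTH16, XTH26 and XTH27 fell by 0.70, 0.90 and 0.38 on the log2 scale. XTH18, named here as the 1 member that rose, had a log2 change of 0.51 ± 0.126 (SE). Its adjusted p of 0.0236 rose above the threshold under 7 of 15 alternatives, among them those without auxin 1, auxin 2, brassinazole 1 or brassinazole 3 (0.0129 to 0.154 over all 15). The XTH27 call was lost under 6 of 15, among them those without auxin 1, auxin 2 or brassinazole 2 (0.0118 to 0.127), and that of XTH26 without auxin 2 or auxin 3 (0.0536 and 0.0542; 0.00877 to 0.0542 over 14 alternatives). That of XTH16 was lost without auxin 1 and brassinazole 3 together (0.0533; 0.000294 to 0.0533 over 15). XTH21 and XTH29 were too dim on the mean over all 6 arrays to be tested. XTH21 read 28.9, 3.72 and 20.3 with 2,4-D alone and 46.5, 43.6 and 43.0 with brassinazole, without overlap. The groups of XTH29 overlapped.

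**Figure D5:**
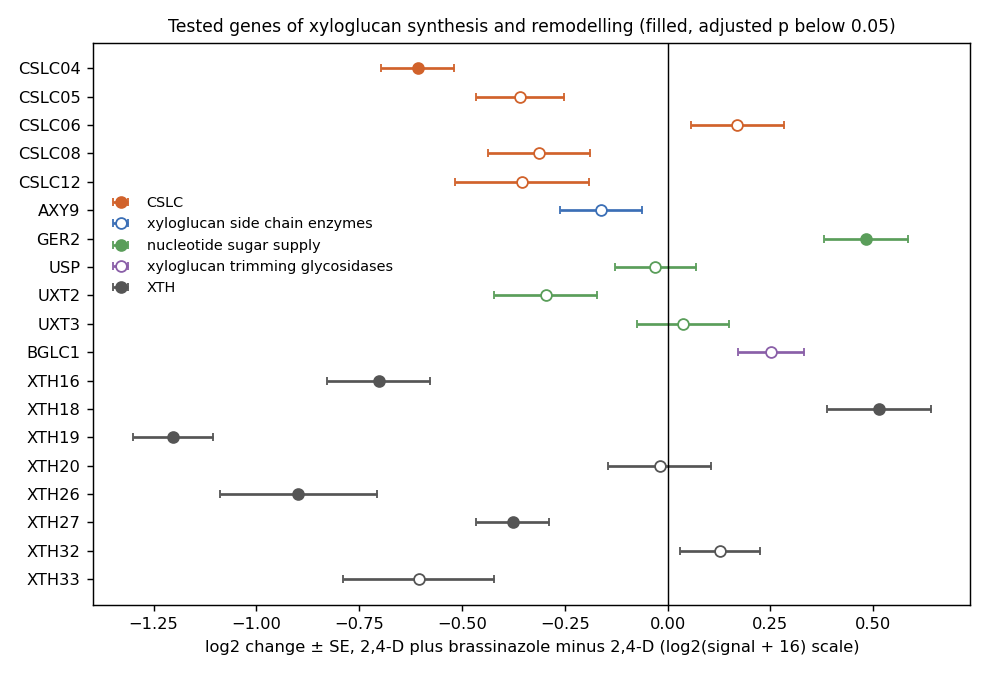
Log2 change ± SE of the 5 CSLC genes and the 14 other tested genes of xyloglucan synthesis and remodelling, coloured by role and filled where the limma adjusted p was below 0.05. CSLC04 and XTH33 both lie at -0.61, though XTH33 did not pass (limma adjusted p = 0.0622), and XTH16 lies at -0.70. XTH19 lies farthest left at -1.20, and GER2 at 0.48 and XTH18 at 0.51 lie to the right.

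Other synthases of the same superfamily were little covered by the annotation used, which left many probe sets of the array without a gene. None of the 10 cellulose synthase (CESA) loci was named by a probe set. Of 25 loci of the other CSL families, 3 were named. CSLA03, of the family of mannan synthases, was at 641 ± 95.5 and 540 ± 38.3 (limma adjusted p = 0.248), and CSLD2, needed for root hair growth, at 779 ± 35.2 and 817 ± 94.7 (adjusted p = 0.769). The third, CSLA01, was too dim to be tested.

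The genes whose profile was most like that of a member were found by Pearson's r of log2(signal + 16) over the 6 arrays. Since the arrays form 2 groups, a shared difference between the groups makes up much of such an r, and it is given as a description only. For CSLC04 these were LBD16 (r = 0.999), a transcription factor of lateral root initiation, AT2G44230 (0.995) and AT1G30760 (0.995). LBD16 had signals of 323, 284 and 292 with 2,4-D alone and 110.2, 122 and 144 with brassinazole, so it had the order of CSLC04 over the arrays within both groups, with a larger change (-1.16 against -0.61). AT1G30760 fell from 587 ± 24.2 to 231 ± 31.5 and AT2G44230 from 149 ± 5.11 to 104 ± 6.12. The call of AT2G44230 (limma adjusted p = 0.0446) was lost under 10 of 14 alternatives, each of those without auxin 1, auxin 2, auxin 3, brassinazole 1 or brassinazole 2 included (0.0251 to 0.138 over all 14).

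For CSLC05 the most similar profile was that of EXGT-A3, the XTH27 gene described above (r = 0.99), followed by AT4G19985 (0.988) and AT1G66760 (0.985). EXGT-A3 had signals of 4520, 4773 and 4028 with 2,4-D alone and 3670, 3466 and 3109 with brassinazole, in the order of CSLC05 on all 6 arrays. Those of CSLC08 were AT2G42040 (0.994), AT5G49540 (0.99) and AT4G17260 (0.989), a lactate dehydrogenase gene. For CSLC12 they were AT2G39410 (0.994), AT5G19090 (0.993) and AT3G15900 (0.992), and for CSLC06 they were AT3G15240 (0.982), AT3G51530 (0.98) and AT5G63630 (0.979). None of the genes most like CSLC06, CSLC08 or CSLC12 passed the threshold. No gene was among the 3 most similar of more than 1 member.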

How the data were processed

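Per the submitters' processing notes, MAS5 made the deposited linear intensities, 1 signal for each probe set and array. The MAS5 version, detection calls and scanner files were not used here. Of 22810 probe sets, 64 are Affymetrix controls and stayed out of the comparison. The platform annotation gave 1 gene for 13513, several for 503 and no entry for 8794. Of these, 13436 matched RefSeq genes of TAIR10.1. That match gave the names and the loci by which members, listed genes and similar profiles were found. The sample titles gave the groups.

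Signals were taken as log2(value + 16). The filter kept the 17059 probe sets at or above the 25th percentile of the mean over all 6 arrays. The groups were tested two-sided with limma 3.58.1 (R 4.3.3) by lmFit and eBayes, using a mean-variance trend, and p-values were adjusted over all 17059 by Benjamini-Hochberg, with a threshold of 0.05. With this pseudocount, changes of dim probe sets come out too small. Printed means and SDs are of linear signals. The number of arrays limits the precision. The steps were tested on simulated arrays.

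The members and lists were chosen with earlier results of these data known. Named genes are all members, up to 4 genes past the threshold per list (or 2 by smallest p), and the 3 most similar profiles per member. XTH18, XTH33, UXT2 and the genes too dim to test were named after their values were seen. A gene with several probe sets counts by the brightest. The closing section gives 14 other settings, and 1 more chosen after the data were seen.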

Additional observations from a re-analysis of the deposited data

How the results depend on the processing

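Over 15 alternatives (14 for CSLC12, which the filter at the 50th percentile left out), CSLC04 kept its call, at a log2 change of -0.66 to -0.56 and a limma adjusted p of 0.000615 to 0.00815, and no member changed sign. With the replicate block, the log2 change of CSLC05 was the same, -0.36 ± 0.0913 (SE), and passed with an adjusted p of 0.0383. This block changed no other member's call, and the 1280 probe sets called with it compare with 1282. Equal numbers correlated at 0.0372, 0.0625 and 0.0491 in their deviations from the group means, each the highest for that array but under 0.1. Unequal numbers correlated at -0.042 to -0.0099. The labels give these samples only an equal number, and whether equal numbers shared a batch was not tested.

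Over the whole array, 696 lower and 586 higher calls became 439 and 316 when eBayes used no trend. They were 458 and 354 with auxin 1 and brassinazole 3 both left out. With 1 array left out they were 453 to 624 lower and 338 to 526 higher. The lowest were 462 and 453 lower without auxin 2 or auxin 3, and 377, 378 and 338 higher without auxin 1, auxin 3 or brassinazole 2. Each of these fits had 1 array fewer, and the part of that in the counts was not tested. Of the xyloglucan genes outside CSLC, 2 to 4 were called lower and 1 to 2 higher with 1 array left out. The 4 lower calls became 2 without auxin 2, and the 2 higher calls became 1 without auxin 1, auxin 2, brassinazole 1 or brassinazole 3. Without both stated arrays they were 2 and 1, and with no filter or without the trend the higher count was 1. The cause was not tested. The same losses took the XTH calls to 2 lower and 0 higher. Of 24 other named genes, 6 lost a call under some alternative and AT4G17260 gained one without brassinazole 3 (adjusted p = 0.044). CSLD2 turned to -0.0042 without brassinazole 1 and reached 0.16 without brassinazole 3. Dim signals limit CSLC12 most.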
